A study of Mus musculus with 16 samples.

Results

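The Hox genes code for homeodomain transcription factors that lie in 4 clusters in the mouse genome and record where along the head-to-tail axis a cell arose. All protein-coding genes whose symbol is Hox followed by a cluster letter (a to d) and a paralogue number were taken, which gave 39 of the 55357 genes in the deposited table. Lumbosacral dorsal root ganglia, the clusters of sensory neurons beside the spinal cord, had been collected from wild-type C57BL6/J mice on day 16. The bladders of these mice had been instilled with 100 µL of saline or of 6.41 nM VEGF165 in saline on days 1, 5 and 9. Males and females each formed a saline group and a VEGFA group (VEGF165), with 4 animals in each of the 4 groups, and every group had 2 libraries in each of 2 batches named in the labels. All groups, saline included, went through the instillations and through von Frey testing of mechanical sensitivity before the harvest. Each animal gave 1 library from its L1, L2, L6, S1 and S2 ganglia, so these levels were mixed, and the labels do not give the share of each level in a library.

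Within a cluster, genes with low numbers are switched on first and reach furthest toward the head, and genes with high numbers are switched on last and are restricted to the tail end. Genes with the same number in different clusters (a paralogue group) are the closest relatives and often act together. In the spinal cord and its nerves, groups 4 to 8 are known for cervical and brachial identity, group 9 for thoracic, group 10 for lumbar and groups 11 to 13 for sacral and caudal identity. CDX factors, retinoic acid and Gdf11 set these domains in the embryo, Polycomb and Trithorax complexes keep them, and PBX and MEIS proteins bind DNA together with Hox proteins.

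Depth was 25.2 to 41.2 M (mega) reads per library, and CPM stands for counts per M reads. The sensory neuron transcription factors Pou4f1 (169 to 372 CPM) and Isl1 (25.3 to 62.5 CPM) were present in all 16 libraries. The summed level of 13 spinal cord markers ranged from 54.9 to 1052 CPM, and that of 11 skeletal muscle markers from 1482 to 31163 CPM. The spinal cord list is summarised below by its mean log2(CPM + 0.5), which exceeded 3 in 7 libraries (saline males 3, 4 and 7, saline females 3 and 7, and VEGFA females 2 and 6) and was 2.67 or lower in the other 9. In bulk tissue, fewer cells of a type and less RNA per cell cannot be told apart.

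The sequence upstream of the start is shown for the members whose levels differed most between libraries among the abundant genes of group 8 and of group 10. These are Hoxb8, on the plus strand of the GRCm38.p6 assembly at chr11:96281655-96281904, and Hoxd10, on the plus strand at chr2:74691641-74691890. Each window holds the 250 bases before the RefSeq transcript start. Capitals mark the CDX-type motif TTTATG, the TATA-type motif TATAAA and the CCAAT box, each searched on both strands.
Hoxb8: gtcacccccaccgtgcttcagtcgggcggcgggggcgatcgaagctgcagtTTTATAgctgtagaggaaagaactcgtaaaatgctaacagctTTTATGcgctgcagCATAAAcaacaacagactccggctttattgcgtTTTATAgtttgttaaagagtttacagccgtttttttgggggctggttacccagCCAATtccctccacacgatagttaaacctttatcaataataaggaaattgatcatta
Hoxd10: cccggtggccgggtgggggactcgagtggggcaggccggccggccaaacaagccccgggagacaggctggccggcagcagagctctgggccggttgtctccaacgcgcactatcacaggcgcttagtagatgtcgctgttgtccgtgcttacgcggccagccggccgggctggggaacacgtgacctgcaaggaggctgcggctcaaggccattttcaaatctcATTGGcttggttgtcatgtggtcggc
The Hoxb8 window held 5 such motifs, of which 2 were CDX-type, and the Hoxd10 window held 1, a CCAAT box on the minus strand. The Hoxd10 window had 20 CpG dinucleotides and a GC content of 65.6%, and the Hoxb8 window had 12 and 44.4%. RefSeq promoters were given for 22 Hox genes (24 windows). The CDX-type motif was in 5 of these 24 windows and in 10.8% of 32851 windows of the same length. The CCAAT box was in 14 of 24 and in 33.8% of all windows, and the TATA-type motif was in 4 of 24 and in 12.4%. The motif TGATTNAT, which Hox proteins bind together with PBX, was in 2 of 24 Hox windows and in 2.82% of all windows, with no match in the Hoxb8 and Hoxd10 windows. A match describes the letters only.

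A further regulatory sequence of Hoxb8 is the site of miR-196a, a microRNA encoded within the Hox clusters and known to cut the Hoxb8 messenger. The mature microRNA from RefSeq is given first, with its seed in capitals, and the site in the Hoxb8 transcript (GENCODE M21) second, with the stretch that faces the seed in capitals.
mmu-miR-196a-5p: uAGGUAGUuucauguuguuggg
Hoxb8 site: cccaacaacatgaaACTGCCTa
The site lay at bases 2208 to 2229 of the 2635-base transcript, behind the coding sequence, which ended at base 1790. Of the 22 bases, 21 formed standard pairs and 1, within the seed, formed a G:U wobble. Poly(A) libraries do not measure mature microRNAs. Of the 3 miR-196 host loci listed, Mir196a-2 and Mir196b were at 0 in all libraries and Mir196a-1 had a mean of 0.30 CPM.

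Summed over all 39 genes, Hox transcripts made up 456 CPM on average (SD 69.0, n = 16). The lowest sum was 367 CPM in VEGFA male 5 and the highest 597 CPM in saline male 4. Cluster a (chromosome 6) gave 146 CPM, cluster b (chromosome 11) 133 CPM, cluster c (chromosome 15) 95.3 CPM and cluster d (chromosome 2) 82.5 CPM. Paralogue groups 4 to 9 supplied 78.5% of the Hox reads (72.9 to 83.5% by library), groups 10 to 13 supplied 13.1% (8.62 to 21.04%) and groups 1 to 3 supplied 8.40%. The bulk of the Hox RNA therefore came from the middle of the clusters, with group 9 alone at 22.1% and group 10 at 10.96%.

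Levels between genes were compared per kilobase (kb) of the longest protein-coding GENCODE M21 transcript. Hoxa7 (chr6:52191471-52198835 in mm39) had the highest mean, 32.5 CPM per kb. Hoxb8 (chr11:96172731-96176142) followed with 18.1 CPM per kb. It was followed by Hoxd1 (chr2:74593324-74595487) with 13.7 CPM per kb, a gene at the 3′ end of its cluster that nociceptive neurons of the mouse are known to express. Its neighbours Hoxd3 and Hoxd4 had 0.48 and 0.29 CPM per kb, so the level along cluster d did not follow gene order. Over libraries Hoxb8 (8.23 to 35.4 CPM per kb) overlapped both Hoxa7 (22.2 to 48.8) and Hoxd1 (8.00 to 17.5). The place of Hoxb8 between them therefore holds for the means only. The next 3 by mean, Hoxa9 (11.9), Hoxc6 (11.7) and Hoxb5 (11.3 CPM per kb), had overlapping ranges over libraries and did not differ beyond their spread.

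Toward the 5′ end of each cluster the levels fell over neighbouring genes. In cluster a, Hoxa10 had 8.11 CPM per kb, Hoxa11 had 0.43 and Hoxa13 had 0.05. In cluster c the sequence from Hoxc10 to Hoxc13 was 10.9, 2.84, 0.52 and 0.20 CPM per kb. In cluster d, Hoxd10 had 5.01, Hoxd11 had 1.70, and Hoxd12 and Hoxd13 had 0.006 and 0.001 CPM per kb. Hoxd13, which patterns the tail end, the digits and the genital tubercle, had 1 read over all 16 libraries, and Hoxd12 had 9. Hoxb13 (chr11:96085142-96088274), the only member between Hoxb9 and the end of cluster b, was at 0 in 7 libraries and reached 3.62 CPM in VEGFA female 2. The most caudal members with a mean of at least 0.5 CPM were Hoxa11, Hoxb9, Hoxc12 and Hoxd11.

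**Figure D1:**
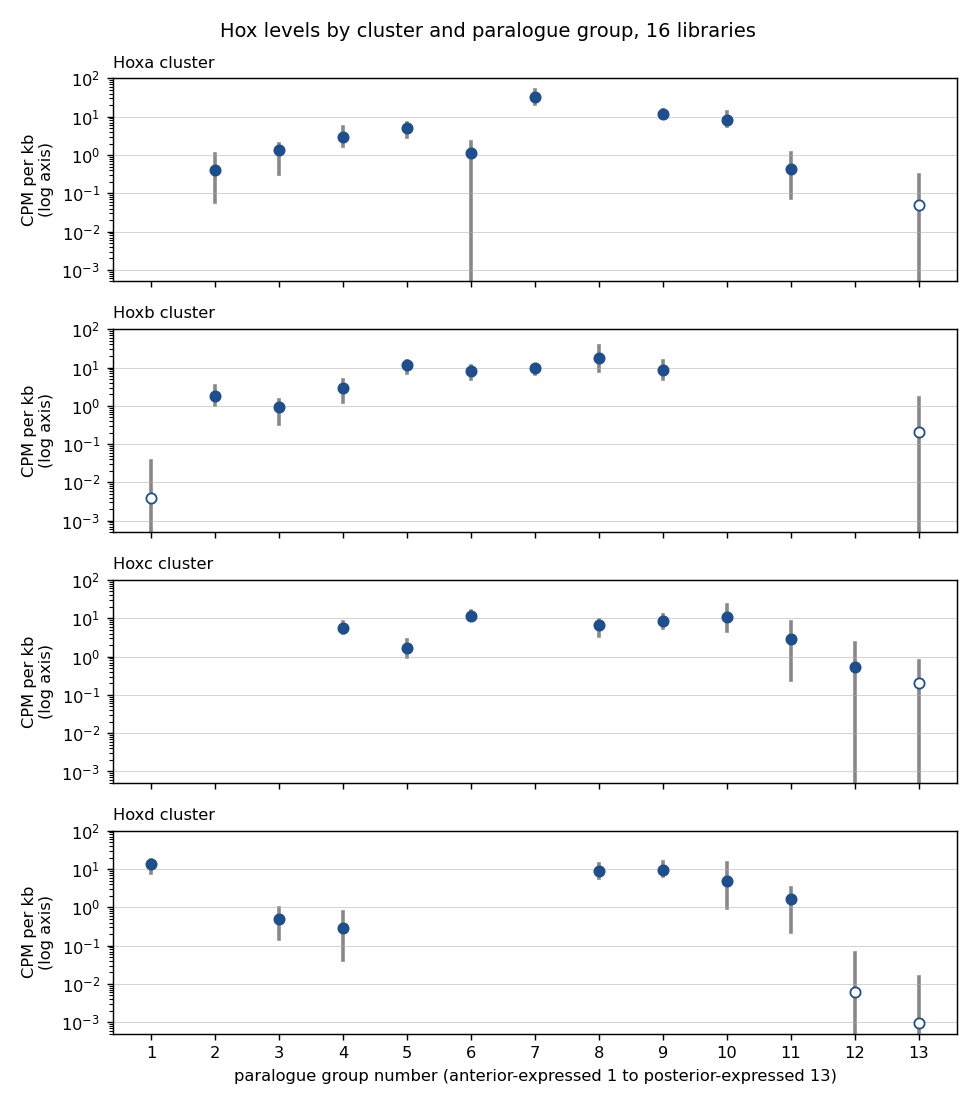
CPM per kb (log axis) against paralogue group number for Hox genes in 4 cluster panels; points are means of 16 libraries, bars run from the lowest to the highest library, a bar that meets the lower edge includes libraries at 0, and open points mark genes below a mean of 0.5 CPM. Hoxa7 stands highest at 32.5 CPM per kb, and levels fall from group 10 to group 13 in clusters a, c and d.

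In the deposited coordinates some members overlap. Hoxa3 spans Hoxa4, Hoxa5 and Hoxa6. Hoxc5 spans Hoxc6, Hoxc8 and Hoxc9 and overlaps part of Hoxc10, and Hoxd3 overlaps Hoxd4. Antisense RNAs overlap Hoxa7 (Hoxaas3), Hoxb5 and Hoxb6 (Hoxb5os) and Hoxd8 (Hoxd3os1). Further listed genes overlap Hoxa11 (Hoxa11os), Hoxb2 and Hoxb3 (Hoxb3os), Hoxd10 and Hoxd11 (Gm28309), Hoxd3 and Hoxd4 (Hoxd3os1) and Hoxa2 (Gm28308). Hoxaas3 and Gm28308 also overlap Hoxa3, Hoxa4, Hoxa5 and Hoxa6. Whether the counting used strand is not given in the sources used here, so the split of reads among these genes is uncertain.

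The 3 tested members that varied most from library to library, Hoxc11, Hoxc12 and Hoxd10, were caudal ones, but not all caudal members varied widely. The residual SD of log2(CPM + 0.5) after group and batch, the spread between animals that the design leaves, had a median of 0.34 over all genes tested. It was 1.00 for Hoxc11, 0.90 for Hoxc12, 0.84 for Hoxd10 and 0.64 for Hoxd11. Of the other caudal members, Hoxc10 had 0.50, Hoxa11 had 0.48 and Hoxa10 had 0.28, and the more rostral Hoxa6 and Hoxd3 had 0.60 each. By this measure 98.1% of all tested genes were less variable than Hoxc11 and 96.2% less than Hoxd10. At the other end stood Hoxc6 with 0.18 and Hoxa9 with 0.19. Among the most abundant members of each cluster, Hoxc9 (0.26), Hoxd1 (0.28) and Hoxd8 (0.33) stayed at or below the median of all genes, and Hoxb9 (0.55) and Hoxb8 (0.72) lay above it.

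Hoxc9, which sets thoracic identity in motor columns, ranged from 13.1 to 28.9 CPM over the 16 libraries (median 20.6). Hoxa9 ranged from 29.2 to 49.2 CPM (median 38.8), Hoxc6 from 14.3 to 24.3 CPM (median 18.1) and Hoxd1 from 14.9 to 32.6 CPM (median 26.2). Hoxd8 ranged from 15.2 to 34.9 CPM (median 23.8).

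Hoxb9 stood at 37.96, 35.97, 19.2 and 17.1 CPM in saline males 3, 4, 7 and 8 and at 20.2, 16.5, 17.2 and 19.5 CPM in VEGFA males 1, 2, 5 and 6. In saline females 3, 4, 7 and 8 it stood at 12.98, 12.8, 27.3 and 17.9 CPM, and in VEGFA females 1, 2, 5 and 6 at 13.7, 33.9, 12.96 and 29.7 CPM. The high libraries were again saline males 3 and 4 and VEGFA females 2 and 6, and the groups overlapped. Hoxc12 had reads in 7 of 16 libraries, with 1.47 and 2.10 CPM in saline males 3 and 7, 0.70 and 0.67 CPM in saline females 7 and 8, and 2.30, 0.59 and 0.75 CPM in VEGFA females 2, 5 and 6. It was at 0 in all 4 VEGFA males, where 3 reads correspond to 0.07 to 0.11 CPM.

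The remaining rostral and middle members lay between these. Of groups 4 and 5, which are known from the neck and brachial region, Hoxb5 ranged from 13.6 to 28.3 CPM, Hoxc4 from 8.70 to 16.8, Hoxa5 from 5.64 to 12.6, Hoxb4 from 3.17 to 11.9, Hoxa4 from 2.80 to 8.63 and Hoxc5 from 2.90 to 7.88 CPM. Of groups 6 to 8, Hoxb6 ranged from 9.85 to 20.9 CPM, Hoxb7 from 8.57 to 14.9 and Hoxc8 from 6.60 to 16.8 CPM. Of group 10, Hoxa10 ranged from 14.5 to 33.4 CPM. Among the hindbrain members of groups 1 to 3, Hoxb2 ranged from 1.75 to 5.21 CPM and Hoxd3 from 0.45 to 2.82 CPM. Hoxd4 ranged from 0.11 to 1.90 CPM, and Hoxb1 had 4 reads in all. Hoxc13 ranged from 0 to 1.92 CPM and Hoxa13 from 0 to 0.73 CPM, and the highest library of both was saline male 7.

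Summed group 11 (Hoxa11, Hoxc11 and Hoxd11), the sacral group, ranged 23.96-fold, from 0.91 CPM in VEGFA male 6 to 21.8 CPM in saline male 4. Group 10 ranged 3.36-fold, and group 9 ranged 1.67-fold. For a single value per library, the summed CPM of groups 10 to 13 was divided by that of groups 4 to 9, and the log2 of this caudal to rostral ratio is used. The median was -2.66, with -3.21 in VEGFA male 6 and -1.79 in saline male 4 as extremes. In saline males it was -2.22, -1.79, -2.34 and -3.13 for animals 3, 4, 7 and 8, and in VEGFA males -2.94, -3.18, -2.49 and -3.21 for animals 1, 2, 5 and 6. In saline females it was -2.53, -2.59, -2.73 and -2.73, and in VEGFA females -3.06, -2.13, -2.07 and -2.95. Saline females lay close together (SD 0.098, n = 4), the other groups had SDs of 0.33 to 0.56, and all 4 groups overlapped. The mean was -2.56 in batch 1 (SD 0.49, n = 8) and -2.71 in batch 2 (SD 0.39, n = 8).

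**Figure D2:**
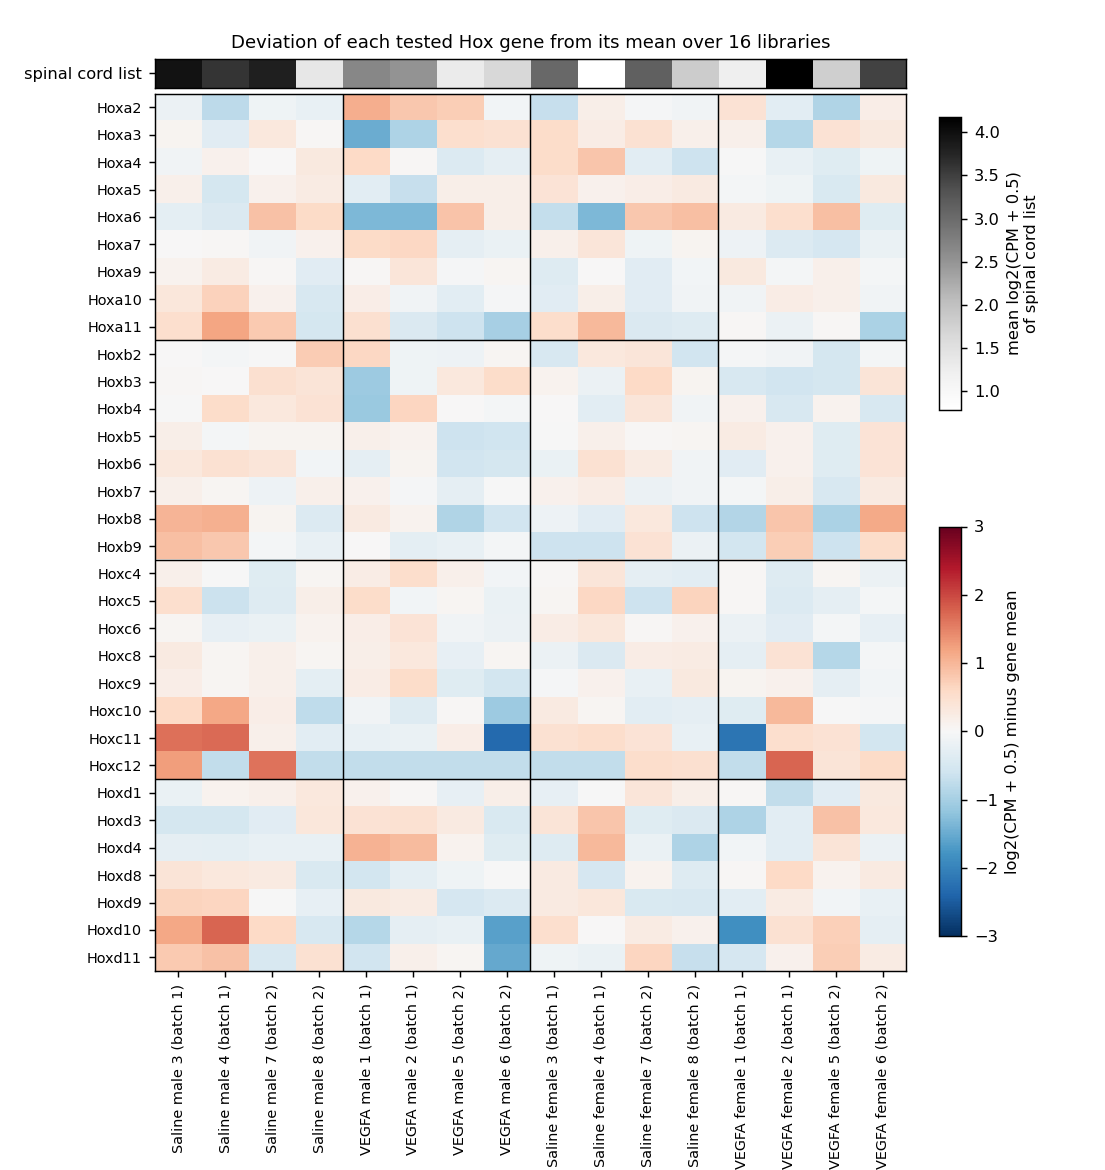
Deviation of log2(CPM + 0.5) from the gene's mean for the 32 tested Hox genes (vertical) in 16 libraries (horizontal, by group, with the batch), colour scale from -3 to 3, and above it a grey strip with the mean log2(CPM + 0.5) of the spinal cord list. The strongest colours lie in Hoxc11, Hoxd10 and Hoxc12; saline males 3 and 4 are high, and VEGFA male 6 and VEGFA female 1 low, in Hoxc11 and Hoxd10.

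Hoxc11 and Hoxd10, in different clusters, followed each other across libraries. Over 16 libraries the log2 levels had a Pearson r of 0.94 (Spearman rho 0.86), and r was 0.87 without VEGFA female 1 and VEGFA male 6, the 2 libraries farthest from the median. Within batch 1 r was 0.96 and within batch 2 it was 0.91 (n = 8 each). Hoxc10 followed Hoxd10 with r = 0.78, which was 0.59 without VEGFA male 6 and saline male 4. Of 496 pairs of tested members, 10 had r above 0.7, 7 of them between clusters, and the median r was 0.06. These values describe 16 libraries that share batches, and no p is given.

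Hoxc11 had as few as 17 reads in VEGFA male 6 and in VEGFA female 1, and 422 and 416 in saline males 3 and 4, a gap wider than counting error. Hoxb8 and Hoxb9, neighbours in cluster b, came next with r = 0.86, and Hoxa7 and Hoxc6 after them with r = 0.81. The lowest r belonged to Hoxa6 and Hoxa7 (-0.78), with -0.97 within batch 1 and 0.03 within batch 2. Within batch 1, Hoxa7, Hoxc6 and Hoxa6 lay apart between the runs of library numbers described below. Hoxa7 and Hoxc6 were higher in the first run and Hoxa6 in the second. The part of the runs in these r values was not tested.

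Several members moved with the spinal cord list. Hoxb8 stood at 85.5, 89.5, 44.8 and 31.4 CPM in saline males 3, 4, 7 and 8, and at 51.3, 45.3, 22.5 and 27.9 CPM in VEGFA males 1, 2, 5 and 6. In saline females 3, 4, 7 and 8 it stood at 38.01, 33.05, 52.9 and 27.1 CPM, and in VEGFA females 1, 2, 5 and 6 at 22.9, 75.1, 21.7 and 93.4 CPM. The highest libraries came from saline males and VEGFA females, and all 4 groups overlapped. Hoxb8 had r = 0.85 with the spinal cord list (rho 0.79, 0.88 without VEGFA female 2 and saline female 4, 0.88 in batch 1 and 0.83 in batch 2). Hoxb9 had r = 0.76, Hoxd8 0.73, Hoxc12 0.67, Hoxc10 0.65, Hoxd10 0.59, Hoxc8 0.57, Hoxb6 0.55 and Hoxc11 0.50. Within batches 1 and 2 r was 0.83 and 0.66 for Hoxb9, 0.72 and 0.76 for Hoxd8, and 0.66 and 0.85 for Hoxc12. It was 0.74 and 0.48 for Hoxc10, 0.68 and 0.40 for Hoxd10, and 0.80 and 0.31 for Hoxc8. The batches differed most for Hoxb6, with 0.18 and 0.90, and Hoxc11 had 0.63 and 0.22. In all, 9 of the 32 tested members had r above 0.5 with this list and 0 below -0.5, and the median was 0.14. The share of all genes with r above 0.5 is not given, for this list or the lists below.

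The other lists were matched by fewer members. With the sensory neuron list 1 member had r above 0.5 (Hoxd1, 0.64, with 0.94 in batch 1 and -0.23 in batch 2) and 3 had r below -0.5. With the skeletal muscle list 2 were above 0.5 (Hoxd8 with 0.67 and Hoxc10 with 0.53) and 1 below -0.5 (Hoxd1 with -0.66). With the fibroblast list 0 were above 0.5 and 1 below -0.5. These are descriptions over 16 shared libraries, and the part of other tissue in any Hox level was not tested.

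**Figure D3:**
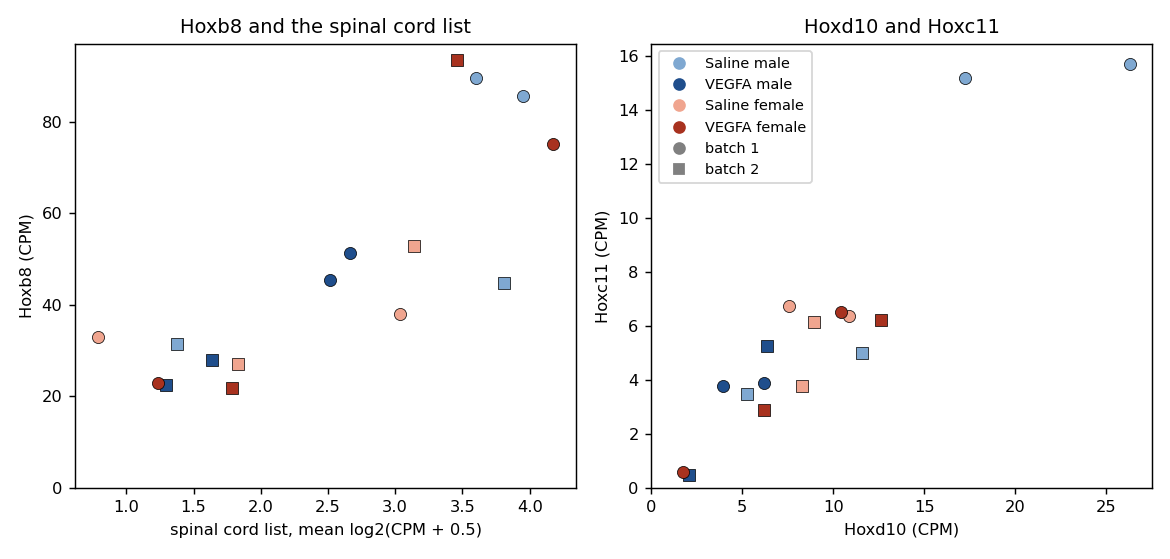
Left, Hoxb8 (CPM) against the mean log2(CPM + 0.5) of the spinal cord list; right, Hoxc11 against Hoxd10 (both CPM). Points are the 16 libraries, coloured by group, circles for batch 1 and squares for batch 2; the 4 libraries above 75 CPM of Hoxb8 all have a list mean above 3, and saline males 3 and 4 stand apart in Hoxc11 and Hoxd10.

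By likeness of the residuals after group and batch, the genes closest to Hoxc10, the most abundant of groups 10 to 13, were Dipk1a (r = 0.86), Gucy1b1 (0.83), Me3 (0.82), Suclg1 (0.80), Hspa1l (0.80), Kcnn3 (0.78), Lrtm2 (0.77) and Nell1 (0.77). Those closest to Hoxa7, the most abundant of groups 4 to 9, were Zfp428 (0.95), 1700037H04Rik, Fibp, Tmem51, Lhfpl5, Mrpl52, Slc29a1 and Klhdc3 (0.93). Both searches covered 14187 protein-coding genes other than Hox genes over 16 libraries. The fit has no term for the runs of library numbers within batch 1, which are described below. Hoxa7, Zfp428, 1700037H04Rik and Fibp all lay apart and higher in the first run, and Dipk1a overlapped between the runs. The part of the runs in these r values was not tested.

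Of the 39 members, 32 passed the filter of a mean of 0.5 CPM and were tested with limma on log2(CPM + 0.5), with p-values adjusted over 18283 genes by Benjamini and Hochberg and a threshold of 0.05. The other 7 had lower means and were not tested. The first question was whether VEGFA in the bladder went with a change of Hox levels. In males, Hoxd10 stood at 17.3, 26.3, 11.6 and 5.24 CPM in saline animals 3, 4, 7 and 8 and at 3.95, 6.19, 6.33 and 2.07 CPM in VEGFA animals 1, 2, 5 and 6. Saline males 3, 4 and 7 were above every VEGFA male, and saline male 8 lay among the VEGFA males. The log2 difference was -1.49 (SE 0.50, 95% CI -2.55 to -0.44, limma adjusted p = 0.90), which did not pass. Hoxc11, with 15.2, 15.7, 5.01 and 3.47 CPM in saline and 3.76, 3.87, 5.27 and 0.48 CPM in VEGFA males, gave -1.43 (SE 0.59, limma adjusted p = 0.90), and the groups overlapped.

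Hoxc10, a lumbar gene, stood at 29.5, 43.5, 22.2 and 11.2 CPM in saline males and at 17.8, 14.5, 19.9 and 8.79 CPM in VEGFA males, with overlap. Its log2 difference was -0.69 (SE 0.31), and that of Hoxa11 was -0.88 (SE 0.36). Hoxa2, a hindbrain gene, had the second smallest p and lay on the other side, with 0.50, 0.15, 0.52 and 0.46 CPM in saline and 1.90, 1.49, 1.38 and 0.57 CPM in VEGFA males. The VEGFA males were all above the saline males, and the log2 difference was 0.98 (SE 0.36, limma adjusted p = 0.90). The closest libraries, saline male 7 with 18 reads and VEGFA male 6 with 20, lay within counting error. The share of all genes whose male groups lay apart is not given here.

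By limma, 0 of 32 members passed in males, where 0% of all genes tested did. At an unadjusted p under 0.05 there were 7 members (6 lower, 1 higher), beside 5.51% of all genes. edgeR on the recovered reads called 0 members, with 8 at an unadjusted p under 0.05, and DESeq2 called 0, with 7. In direction, 24 of 32 members were lower in VEGFA males, with a median log2 difference of -0.27. Over all genes the median was -0.006, and 48.8% of them were higher in VEGFA males. The spinal cord list lay lower in the same comparison, with a median of -1.42 and summed levels of 107 to 1052 CPM in saline males and 89.5 to 442 CPM in VEGFA males, and 11 of its 11 tested genes were lower. With the list mean as a covariate the Hoxd10 difference was -1.04. Without the 7 libraries with a list mean above 3, which left saline male 8 as the only saline male, it was -0.02, Hoxc11 was at -0.29 and Hoxc10 at 0.30. The lone saline male was there assumed to vary like the other groups. The saline males left out were those above every VEGFA male in Hoxd10. This fit therefore cannot tell the list from the choice of animals. Within batch 1 the Hoxd10 difference was -1.9998 and within batch 2 it was -0.99 (limma adjusted p = 0.32 and 0.31).

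In females, Hoxd10 stood at 10.8, 7.56, 8.95 and 8.29 CPM in saline animals 3, 4, 7 and 8 and at 1.75, 10.4, 12.6 and 6.18 CPM in VEGFA animals 1, 2, 5 and 6, so that VEGFA animals lay on both sides of the saline ones. The smallest p belonged to Hoxa7, at 70.9, 82.5, 58.4 and 67.7 CPM in saline and 57.5, 47.5, 44.5 and 55.3 CPM in VEGFA females. All VEGFA females were below all saline females, with no overlap, and the log2 difference was -0.44 (SE 0.16, 95% CI -0.78 to -0.10, limma adjusted p = 0.51), which did not pass. Hoxc6, a gene of brachial identity, was next with 21.3, 23.3, 18.6 and 19.9 CPM in saline and 16.1, 14.3, 17.6 and 15.4 CPM in VEGFA females, again without overlap. Its log2 difference was -0.38 (SE 0.16, limma adjusted p = 0.51). The share of all genes whose female groups lay apart is not given here. In batch 1 the VEGFA and saline females also fall into different runs of numbers in the library names, between which both genes lay apart, and the run and the treatment cannot be told apart there. Within batch 1 alone the differences were -0.55 for Hoxa7 and -0.54 for Hoxc6, and within batch 2 alone they were -0.34 and -0.22.

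By limma, 0 of 32 members passed in females, where 0% of all genes did. At an unadjusted p under 0.05 there were 2 members, beside 9.49% of all genes, and edgeR and DESeq2 called 0, with 2 at an unadjusted p under 0.05 each. Over both sexes 0 of 32 passed (0% of all genes), 4 had an unadjusted p under 0.05 (6.37% of all genes), and edgeR and DESeq2 called 0, with 3 and 4. The smallest p values were those of Hoxd10 (-0.97, SE 0.36) and Hoxa11 (-0.66, SE 0.25), both with a limma adjusted p of 0.72. In the comparison over both sexes 26 of 32 members were lower in VEGFA animals, with a median of -0.14. Over all genes the median was -0.02, and 46.3% of them were higher in VEGFA animals. In the same comparison 11 of 11 tested spinal cord genes (median -0.33), 9 of 9 fibroblast genes (median -0.21) and 7 of 7 macrophage genes (median -0.34) were lower and 11 of 11 skeletal muscle genes (median 0.66) were higher, none of them past the threshold. In females alone the spinal cord list was higher (10 of 11 genes, median 0.69), as was the skeletal muscle list (11 of 11, median 1.56), and 7 of 7 macrophage genes were lower (median -0.76). The part of the muscle, fibroblast and macrophage lists in the Hox values was not tested.

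**Figure D4:**
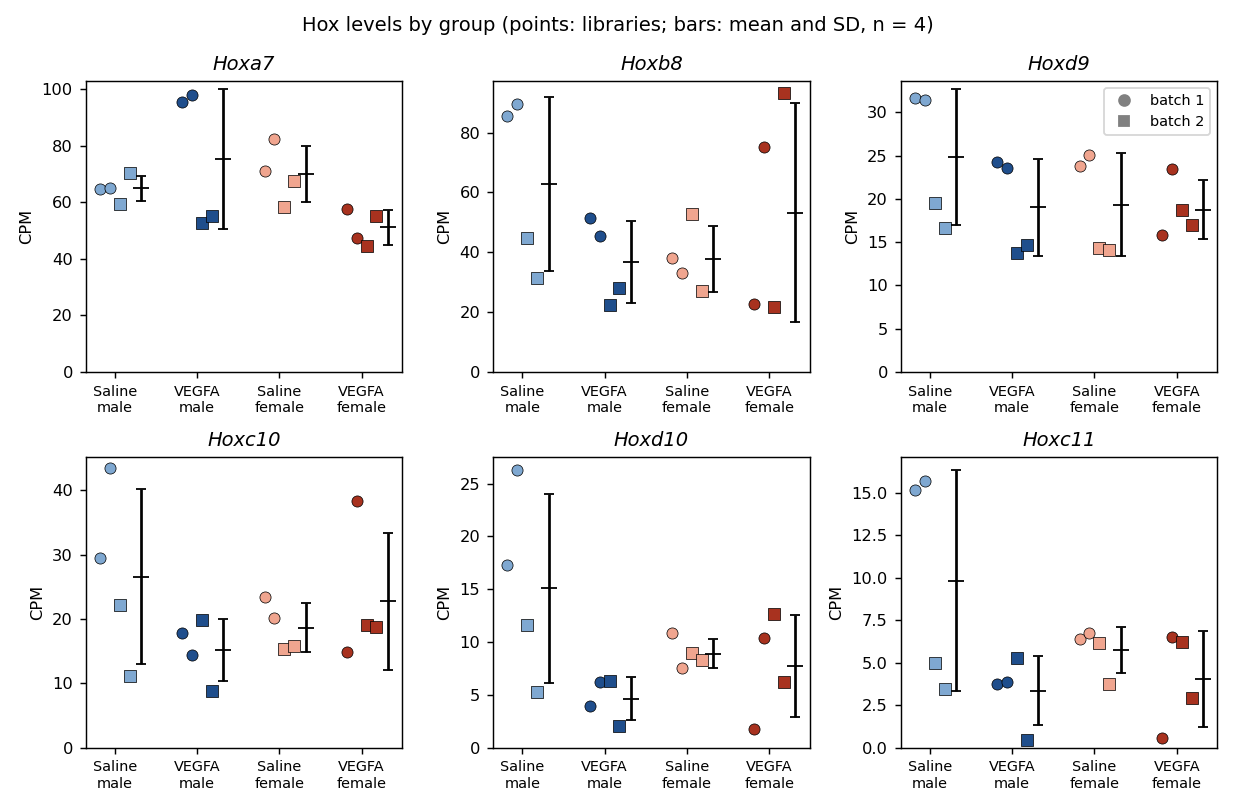
CPM of 6 Hox genes in the 4 groups; points are libraries (circles batch 1, squares batch 2), and the bars beside them give the mean and SD of 4 libraries. In Hoxd10 and Hoxc11 the 2 batch 1 saline males stand highest, and in Hoxa7 the 2 batch 1 VEGFA males do, at 95.4 and 98.0 CPM.

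The VEGFA difference in females was compared with that in males by the interaction term. 0 of 32 members passed by limma (0% of all genes), 4 had an unadjusted p under 0.05 (8.19% of all genes), and edgeR and DESeq2 called 0, with 7 each at an unadjusted p under 0.05. Hoxa7 had the smallest p, with -0.60 (SE 0.23, limma adjusted p = 0.61), and Hoxd8 was next with 0.75 (SE 0.31, limma adjusted p = 0.61). For Hoxd10 the value was 1.04, and for Hoxc10 it was 0.89. The spinal cord list had a median of 1.94 in the same term (10 of 11 tested genes higher), and the skeletal muscle list had a median of 2.07 (11 of 11 higher). With the spinal cord list mean as a covariate the Hoxd10 value was 0.41 and the Hoxc10 value 0.50. Without the 7 libraries high in that list, which left saline male 8 as the only saline male, they changed sign, to -0.61 for Hoxd10 and -0.38 for Hoxc10, and Hoxd8 was at 0.18. Here too the list and the choice of animals cannot be told apart. The part of the skeletal muscle list, which Hoxd8 and Hoxc10 followed with r = 0.67 and 0.53, was not tested. The VEGFA males had 95.4, 98.0, 52.6 and 55.0 CPM of Hoxa7 (animals 1, 2, 5 and 6), and saline males had 64.7, 65.1, 59.4 and 70.3 CPM.

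With batch 1 alone the Hoxa7 interaction was -1.12 and passed (limma adjusted p = 0.037), and with batch 2 alone it was -0.08 (limma adjusted p = 0.93). In that batch 1 fit 1 of 30 tested members passed, where 929 of 18230 genes (5.10%) did. The library names of batch 1 form 2 runs of numbers, S14 to S17 for VEGFA males and saline females and S110 to S113 for saline males and VEGFA females. In batch 1 these runs cannot be told apart from the interaction of treatment and sex, nor from VEGFA against saline within either sex, and what the numbers mean is not given in the sources used here. Hoxa7 ranged from 70.9 to 98.0 CPM in the first run and from 47.5 to 65.1 CPM in the second. Hoxc6 and Hoxd3 also lay apart and higher in the first run, and Hoxa6 lay apart and higher in the second (0.45 to 1.31 CPM, beside 0 to 0.27 CPM). These 4 of 32 members compare with 15.2% of all genes tested whose ranges lay apart between the runs. Zfp428, the gene most like Hoxa7, ranged from 19.98 to 35.5 CPM in the first run and from 12.8 to 19.7 CPM in the second. For 1700037H04Rik the ranges were 167 to 221 CPM and 121 to 156 CPM, and for Fibp they were 55.7 to 64.1 CPM and 34.2 to 46.8 CPM.

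Females and males did not differ in any tested member by limma (0 of 32, where 0.0766% of all genes passed). 0 members had an unadjusted p under 0.05 (7.78% of all genes), and edgeR and DESeq2 called 0, with 1 each. The smallest p values belonged to Hoxa7 (female minus male -0.20, SE 0.11, 95% CI -0.44 to 0.04) and Hoxa3 (0.34, SE 0.24, 95% CI -0.16 to 0.85), with limma adjusted p values of 0.69 and 0.73.

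Between the batches 6 of 32 members differed, where 37.3% of all genes tested did, a smaller share of the Hox genes than of all genes. Hoxd9, a group 9 gene of cluster d, had the smallest p. Its batch 1 levels ran from 15.8 to 31.6 CPM (median 24.02) and its batch 2 levels from 13.7 to 19.5 CPM (median 15.7), with overlap. The difference, batch 2 minus batch 1, was -0.60 (SE 0.12, limma adjusted p = 0.0016). Hoxa6 was at 0 in 3 of 8 batch 1 libraries (median 0.36 CPM, highest 1.31) and at 0.50 to 1.89 CPM (median 1.76) in batch 2, with a difference of 1.18 (SE 0.29, limma adjusted p = 0.0053). 

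Hoxa11, a sacral gene, ran from 0.48 to 2.56 CPM (median 1.39) in batch 1 and from 0.17 to 1.80 CPM (median 0.46) in batch 2, and the difference was -0.78 (SE 0.25). Hoxa7 ran from 47.5 to 97.98 CPM in batch 1 and from 44.5 to 70.3 CPM in batch 2 (-0.30, SE 0.11). Within batch 1 the mean of Hoxa7 was 86.7 CPM in the S14 to S17 run and 58.7 CPM in the S110 to S113 run. Its batch 2 mean was 57.9 CPM, near that of the second run. The rostral genes Hoxb3 (1.04 to 3.03 CPM in batch 1, 1.76 to 4.48 CPM in batch 2, difference 0.57) and Hoxa3 (0.82 to 4.94 CPM in batch 1, 3.29 to 4.78 CPM in batch 2, difference 0.66) were higher in batch 2. All 6 overlapped between batches. Leaving out each library gave 2 to 8 members called, with 2 without VEGFA male 1 or VEGFA male 6 and 3 without saline female 4. Hoxa6 passed under all 24 alternatives run, and Hoxa3, Hoxb3 and Hoxa7 did not pass under 15, 12 and 11 of 25. None of these alternatives left out the S14 to S17 run as a whole, so the part of that run was not tested. Batch 2 was also sequenced deeper (32.8 to 41.2 M reads, beside 25.2 to 32.8 M in batch 1), and 5 of 11 skeletal muscle markers were lower there, with a list median of -1.38; the part of either in the Hox differences was not tested.

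The scaling changed this balance. The median difference of all genes was 0.14 under CPM scaling and 0.01 under median-of-ratios scaling. Under the latter 11 members were called, 1 higher (Hoxa6) and 10 lower in batch 2 (Hoxd9, Hoxa4, Hoxa7, Hoxa9, Hoxa10, Hoxa11, Hoxb5, Hoxc4, Hoxc9 and Hoxc10), where 35.3% of all genes were called and the Hox share was near it, against 3 higher and 3 lower under CPM scaling. Hoxd9, Hoxa11 and Hoxa7 were called lower and Hoxa6 higher under both, and Hoxa3 and Hoxb3 kept their sign but did not pass under median-of-ratios scaling (limma adjusted p = 0.080 and 0.081).

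**Figure D5:**
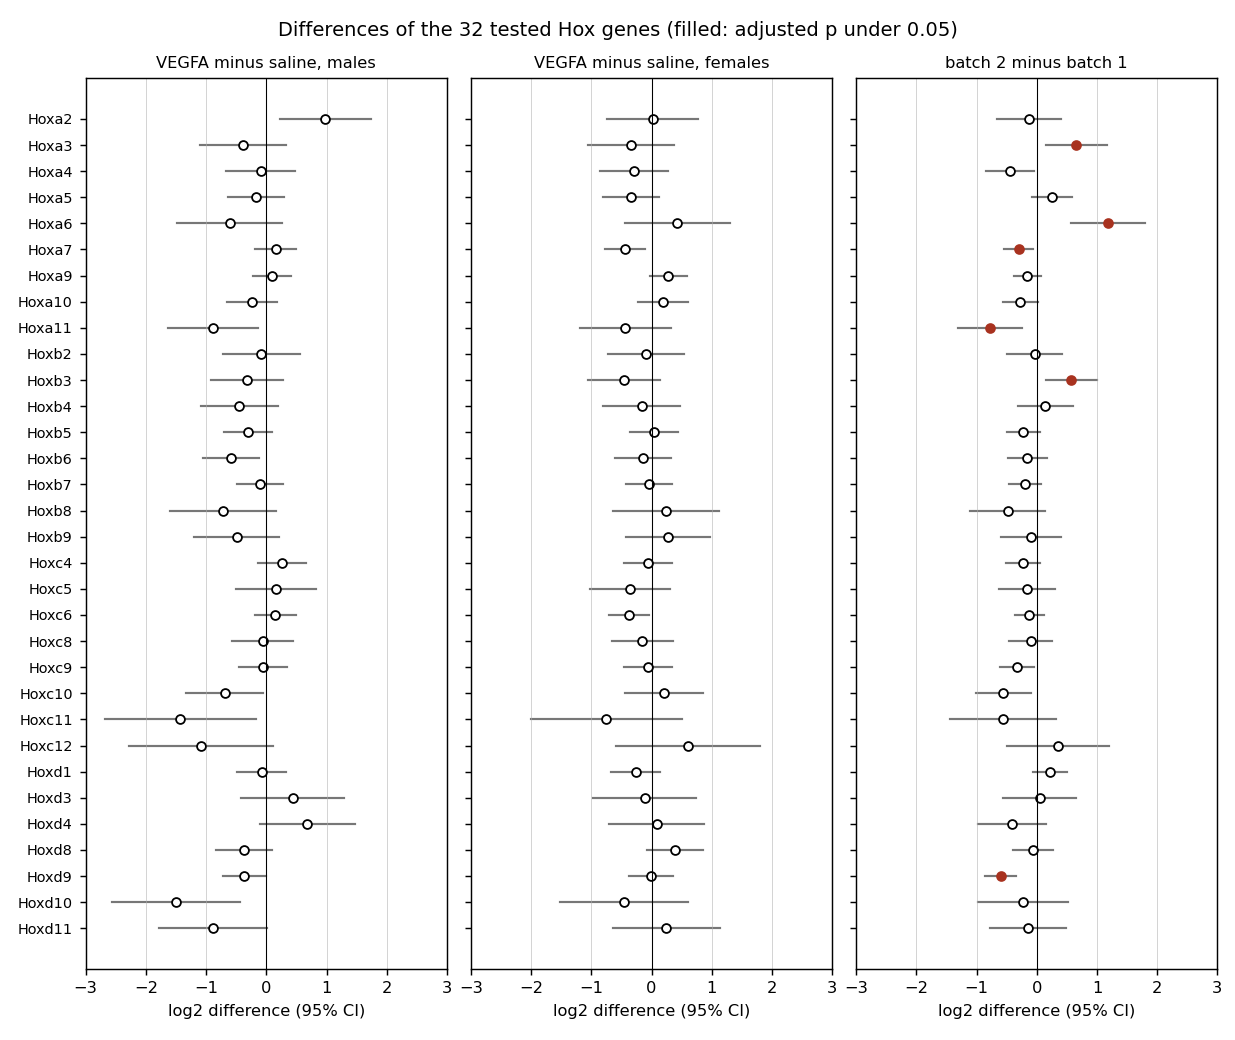
log2 differences of the 32 tested Hox genes with 95% confidence intervals from limma, for VEGFA minus saline in males and in females and for batch 2 minus batch 1; filled points passed an adjusted p of 0.05. In the VEGFA panels 0 points are filled, and in the batch panel 6 are, 3 on each side of 0 under CPM scaling (1 on the higher and 10 on the lower side under median-of-ratios scaling).

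Other genes that act with the Hox genes were followed as fixed lists. Among the Hox cofactors all 9 TALE homeodomain genes were tested, with Pknox2 at 94.1 and Pbx2 at 86.4 CPM as the most abundant, and 0 passed in any comparison. Of the 13 ParaHox and axial regulators, Cdx2, Cdx4, Gsx1, Gsx2 and Pdx1 were at 0 in all libraries and 4 were tested; Gdf11, the secreted factor that sets the trunk to tail transition, had a mean of 42.7 CPM. Between batches Nr6a1 (0.84), Gdf11 (0.47) and Lin28b (0.64) were higher in batch 2 under CPM scaling, and 1 of the 4 passed under median-of-ratios scaling.

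Of the 23 Polycomb and Trithorax genes, which keep Hox genes silent or active, 11 were called higher and 0 lower in batch 2 (6 and 0 under median-of-ratios scaling). Over all genes tested, 4899 of 18283 were called higher and 1919 lower (3301 and 3158 of 18295 under median-of-ratios scaling). The smallest p values belonged to the Trithorax-type methyltransferases Kmt2d (0.89, SE 0.092), Kmt2a (0.82, SE 0.11) and Ash1l (1.10, SE 0.18). In the retinoic acid pathway 14 of 16 genes were tested, of which 4 were called higher and 2 lower in batch 2 (2 and 2 under median-of-ratios scaling). In the VEGFA and sex comparisons 0 genes of these lists passed by limma. The smallest p among the retinoic acid genes of the VEGFA comparisons was that of Crabp2, a retinoic acid binding protein, in the interaction, with -1.39 (SE 0.38, limma adjusted p = 0.61).

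Of 15 non-coding RNAs of the Hox clusters 7 were tested. Haglr, transcribed beside Hoxd1 and Hoxd3, had the highest mean (9.38 CPM), Hotair of cluster c had 0.63 CPM and Hottip of cluster a was at 0 in all libraries. Hotairm1 was lower in batch 2 (-0.65, SE 0.25, limma adjusted p = 0.047), the only one called under CPM scaling, where 2 were called lower under median-of-ratios scaling. Of 11 genes that flank the clusters 8 were tested, with 4 called higher and 1 lower in batch 2 (3 and 2 under median-of-ratios scaling) and 0 called in the other comparisons.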

How the data were processed

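Dorsal root ganglia of 16 animals were profiled by poly(A) sequencing. The authors deposited counts per M reads (CPM) for 55357 Ensembl genes with mm39 coordinates, per the file headers; Partek, Bowtie2, STAR and HTSeq are named in the submitters' processing notes without version or role. Each column summed to 1 M within 0.0908, and division by the smallest step of each library gave whole reads for 99.8101 to 99.9149% of values above 0 (tolerance 0.1 read), 25.2 to 41.2 M per library. CPM ties low levels to depth. A listed 0 stands for 0 reads, and 3 reads were taken here as the level near the floor.

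The 18283 genes whose mean reached 0.5 CPM entered a limma 3.58.1 fit (R 4.3.3) of log2(CPM + 0.5), a scale that understates the differences of low genes, with 4 group coefficients and batch over all 16 libraries, eBayes with trend and Benjamini-Hochberg adjustment over all genes. The pipeline was tested on simulated data. The fit was repeated with another pseudocount (0.1 or 1 CPM), without the filter, with a filter at 2 CPM, with median-of-ratios scaling, without the batch term, within each batch, with each library left out and with a replicate block; edgeR 4.0.16 and DESeq2 1.42.0 were run on the whole reads. The spinal cord list as a covariate and the exclusion of 7 libraries were added after the data were seen. Figures and descriptions used Python 3.11.15. Transcript lengths came from GENCODE M21, and promoters and microRNAs from RefSeq (GRCm38.p6). The replicates were separate animals.

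Members were taken by symbol; 1 of them is counted in the sums but not reported here by itself. The text gives the 2 most abundant members of each cluster, the most caudal one with a mean of 0.5 CPM, the 2 with the smallest p in each comparison, all that passed, the 2 most and 2 least variable, and up to 3 genes per other list; Hoxd10, Hoxc10 and Hoxc11 were followed across comparisons, and the runs of library numbers were examined, after their values were seen. Members, lists and tests were chosen with earlier results of these data known.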

Additional observations from a re-analysis of the deposited data

Results flagged for a closer look

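Of 128 sets of 4 libraries (32 members in 4 groups), 5 had a library far from the other 3 of its group by Dixon's criterion. Chance gives about 1 in 20, a share that these 5 of 128 did not exceed. Hoxb2 stood at 5.21 CPM in saline male 8, beside 2.75 to 2.91 CPM in the other saline males, and Hoxd3 at 1.80 CPM in the same library, beside 0.75 to 0.93 CPM. Hoxd8 was low there, at 16.3 CPM beside 27.4 to 29.6 CPM. In VEGFA females, Hoxb2 was low in animal 5 (1.84 CPM, others 2.62 to 2.76 CPM) and Hoxb3 high in animal 6 (3.78 CPM, others 1.71 to 1.85 CPM). Saline male 8 held 3 of the 5, and of the saline males it had the lowest spinal cord list mean (1.37, others 3.60 to 3.95). The part of that list in these values was not tested.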

How the results depend on the processing

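In 188 recomputed counts and ratios, 177 stayed within 1.5 times the reported count or 1 SD of the reported ratio, and 11 moved. The reported counts of the VEGFA, interaction and sex comparisons were 0, so most of the 177 were counts that stayed at 0. The pooled number says little about the batch count. The number of members called between batches was 6 by CPM scaling, 11 under median-of-ratios scaling, 11 by DESeq2, 10 by edgeR and 2 with no filter; leaving out each library gave 2 to 8, with 2 without VEGFA male 1 or VEGFA male 6 and 3 without saline female 4. With batch 1 alone 1 member passed in the interaction (929 of 18230 genes in all). The median caudal to rostral ratio was -4.12 for groups 11 to 13 over 8 and 9, -1.38 in cluster c alone and -2.12 in cluster d alone; cluster b alone gave no median over 16, since Hoxb13 was at 0 in 7 libraries, and ran from -10.06 to -5.54 in the other 9. Leaving out each library gave -2.73 to -2.59. Of 657 recomputed differences of single members, 605 kept sign and side, 44 no longer passed (all between batches), 1 newly passed and 7 changed sign. Only the 6 batch differences had passed and could stop passing, so the 44 belong to these alone. Hoxa3 no longer passed under 15 of 25 alternatives, Hoxb3 under 12 of 25 and Hoxa7 under 11 of 25. For Hoxa11 it was 5 of 24, for Hoxd9 1 of 25 and for Hoxa6 0 of 24. In females Hoxd10 became 0.040 with batch 2 alone and 0.17 without VEGFA female 1 (-0.84 to 0.17 over all libraries left out in turn). Without the libraries high in the spinal cord list, Hoxc10 became 0.30 in males and -0.083 in females, and in the interaction Hoxd10 became -0.61, Hoxc11 -0.74 and Hoxc10 -0.38. The cause was not tested. With a replicate block, 0 members passed for sex or the interaction. Same-numbered males and females had correlations of deviations from -0.30 to 0.17. The labels do not say whether a shared number marks a shared litter or day, and these correlations cannot settle it. Each group had 4 libraries, and Hoxc12 and the members under 0.5 CPM were at 0 in several of them.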
